A study of Mus musculus with 25 samples.

Results

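This comparison set pituitary tumors taken 5 days after doxycycline (dox) was withdrawn (5d -dox) against pituitary tumors taken 1 day after withdrawal (1d -dox) in shRb mice. The members were chosen by their time off dox alone and were 7 female mice, 4 at 1d -dox and 3 at 5d -dox, out of 13 mice in the short-term dox removal experiment and 25 samples in the whole series. Every mouse carried the reverse tetracycline transactivator (rtTA) at Rosa26, expressed in most cell types, and the shRb5-4 transgene at Col1a1, in which dox drives a GFP transcript that carries the miR-E shRNA against Rb1. The strain came from 1 embryonic stem cell clone. All 7 mice had been on dox for 16 weeks before it was removed, so both groups had been through the knock-down and differed in labelled treatment only by 4 more days without dox. The sucrose given with dox in the drinking water also ended with it. The labels gave no ages for these groups. The other short-term groups, 3 mice still on dox at 16 weeks (16w +dox) and 3 mice at 3 days off dox (3d -dox), were male. Their values are given only for context, because sex and time cannot be told apart between them and the female mice. No female mouse of the short-term experiment was sampled on dox.

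RB, the product of Rb1, holds E2F transcription factors in check and so restrains the genes that cells need to copy their DNA and divide. Loss of RB in the mouse pituitary gives rise to tumors of melanotrophs, the cells of its intermediate lobe. Melanotrophs make the prohormone POMC and process it into melanocyte-stimulating hormone. In a Tet-ON transgene, dox lets rtTA bind the promoter, and withdrawal of dox stops transcription, after which transcript, shRNA and target mRNA turn over at their own rates.

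The tissue matched its label. The melanotroph markers Pomc, Pax7, Tbx19, Pcsk2, Drd2 and Oacyl were detected in all 7 mice, with Pomc holding between 8.99% and 17.9% of all gene reads. Anterior lobe hormone genes were low beside it, with Gh between 16.6 and 84.8 FPM (the deposited reads scaled for library size) and Prl between 3.29 and 23.8 FPM. Each library held between 9573101 and 12205841 reads on genes. The libraries were rRNA-depleted according to the labels, while the methods of the study name an mRNA library preparation. Between 71.6% and 75.0% of each library stood in the 4 lines of the table that name no gene. The 21 pairs of these 7 mice correlated at r = 0.982 to 0.991 across genes. One library stood apart, the first 1d -dox mouse (1d -dox replicate 1), in which 48 genes lay over 2-fold above each of the other 6 mice, against 0 to 3 genes in any other mouse. These were mostly interferon and antigen presentation genes and are described separately. In such bulk samples, fewer cells of a type and less RNA per cell cannot be told apart.

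The shRNA target site is shown first, since time off dox is meant to end the knock-down of Rb1 through it. The shRb5 site lies wholly in the coding part of exon 22 of 27 of Rb1, on the minus strand of mm10 at chr14:73206076-73206096, and it was found in 1 transcript of GENCODE vM21. The 21 bases of the site are in capitals, with 10 bases of the transcript on either side.

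shRb5 target site in Rb1: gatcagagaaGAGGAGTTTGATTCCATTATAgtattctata

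GFP, the reporter transcribed together with the shRNA, was far lower at 5d -dox. It stood at 741, 310, 702 and 670 FPM in the 4 mice at 1d -dox and at 10.5, 15.2 and 9.34 FPM in the 3 mice at 5d -dox. The groups did not overlap, and the lowest 1d -dox mouse was replicate 2. The means were 606 ± 199 (SD, n = 4) and 11.7 ± 3.08 (SD, n = 3), a ratio of 51.9. On the log2(FPM + 0.5) scale GFP fell by 5.59 (SE 0.29, 95% interval -6.21 to -4.97, limma adjusted p = 1.82e-07), or by 1.40 log2 units per day over the 4 days if the decline was even. In an exact two-sided permutation test over the 7 mice the p was 0.0571, the smallest that 35 splits can give, so this design cannot pass 0.05 by permutation. For context, the male mice stood at 1360, 1025 and 1354 FPM at 16w +dox and at 113, 171 and 80.7 FPM at 3d -dox. GFP was still read 332 to 584 times in each 5d -dox library.

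Rb1, the target of the shRNA, did not pass the test. It measured 3.84, 3.76, 6.03 and 4.21 FPM at 1d -dox and 5.38, 5.04 and 4.92 FPM at 5d -dox, with 123 to 242 reads behind each value. The highest and the lowest mice were both at 1d -dox, and the 5d -dox mice lay inside that range. The fitted log2 fold change was 0.20 (SE 0.16, 95% interval -0.14 to 0.55, limma adjusted p = 0.857, exact permutation p = 0.286). The upper bound lies below a 2-fold increase, and a difference of the fitted size was not detectable with these mice. The male mice measured 4.89, 3.47 and 4.21 FPM at 16w +dox and 4.71, 4.28 and 6.03 FPM at 3d -dox.

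**Figure D1:**
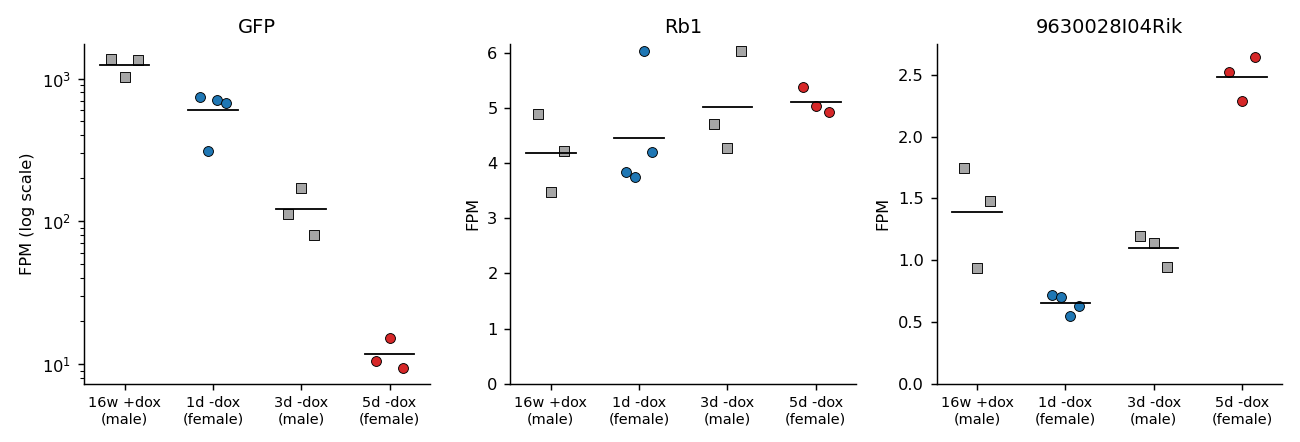
FPM of GFP (log axis), Rb1 and 9630028I04Rik in each of the 13 short-term mice, with circles for the female mice compared here, squares for the male mice of the other groups and a bar at each group mean. GFP lay between 310 and 741 FPM at 1d -dox and between 9.34 and 15.2 at 5d -dox, Rb1 overlapped, and 9630028I04Rik lay between 2.29 and 2.64 FPM at 5d -dox, above every other mouse.

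Across the transcriptome the same 4 days separated the groups at very few genes. Of 13958 genes tested, 1 was called higher at 5d -dox (0.00716% of genes) and 1 was called lower (0.00716%), 0.0143% in all. A call needed a fitted change of more than 2-fold and a limma adjusted p under 0.05. The higher gene was the long noncoding RNA 9630028I04Rik and the lower gene was GFP. No endogenous protein-coding gene was called. Another 8 genes had a fitted log2 fold change over 1 and 8 had one under -1 without passing the adjusted p. At an unadjusted limma p under 0.05 there were 510 genes higher (3.65%) and 373 lower (2.67%), 6.33% in all. When the reads were scaled to library totals in place of the authors' size factors, that split turned to 238 higher and 933 lower, with the median of all genes at -0.07 on the log2 scale. The groups did not overlap at 599 genes higher (4.29%) and 490 genes lower (3.51%), 7.8% in all. The edgeR test on recovered reads also called 1 gene in each direction. DESeq2 on recovered reads called 4 higher (9630028I04Rik, Rab26, Arg1 and Nptxr) and 3 lower (GFP, Dclk3 and Hist1h2al).

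**Figure D2:**
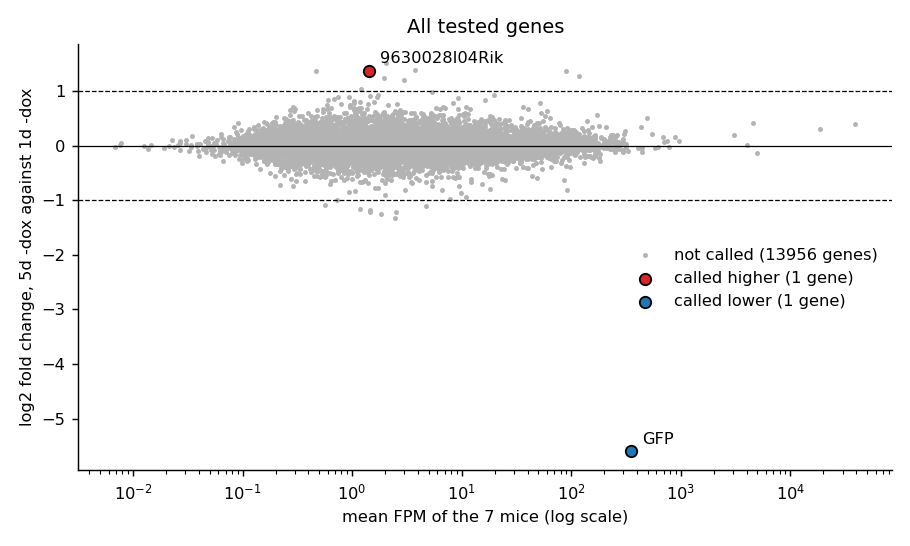
Fitted log2 fold change (5d -dox against 1d -dox) against the mean FPM of the 7 mice (log axis) for the 13958 genes tested, with called genes coloured and dashed lines at a 2-fold change. GFP at -5.59 lies far below every other gene, and 9630028I04Rik at 1.38 is the only gene called higher.

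The small count of calls came with a measurable precision. The median absolute log2 fold change was 0.10, and the 95th percentile was 0.37. For 13549 genes (97.1%) the 95% interval lay wholly within a 2-fold change in either direction, and for 2 genes it lay wholly outside. The median half-width of the interval was 0.29 log2 units, before any adjustment for the number of genes. These values are on the log2(FPM + 0.5) scale, where the added 0.5 makes fold changes of genes with few reads smaller. For such genes an interval within a 2-fold change does not exclude a larger change in FPM. The pseudogene H2-Bl, with 0 to 24 reads per mouse, had a fitted log2 fold change of -0.72. Its ratio of mean FPM was 21.3 (1d -dox over 5d -dox).

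9630028I04Rik, a long noncoding RNA whose function is not described in the sources used here, spans chr17:27235075-27248066 on the minus strand of GRCm38.p6 in RefSeq and overlaps no other RefSeq gene. It measured 0.722, 0.702, 0.548 and 0.631 FPM at 1d -dox and 2.52, 2.29 and 2.64 FPM at 5d -dox. All 3 later mice lay above all 4 earlier mice, and the spread within each group was small, with means of 0.651 ± 0.0787 (SD, n = 4) and 2.48 ± 0.183 (SD, n = 3). The ratio of means was 3.82, and the reads behind it numbered 22 to 28 in the earlier mice and 88 to 94 in the later ones. The fitted log2 fold change was 1.38 (SE 0.16, 95% interval 1.04 to 1.71, limma adjusted p = 0.00247). Its exact permutation p was 0.0571, again the smallest possible. The male mice stood between both groups, at 1.75, 0.935 and 1.48 FPM on dox and 1.19, 1.14 and 0.947 FPM at 3d -dox. The 1d -dox mice were therefore lower than all 9 other short-term mice. Of the RefSeq genes within 100 kb, 1 was tested, Lemd2, with a log2 fold change of -0.14 (adjusted p = 0.811).

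The 250 bases before its start are shown because it was the only endogenous gene called. They lie on the minus strand of GRCm38.p6 at chr17:27248067-27248316 and come from RefSeq. Capitals mark the only match found, the letters CCAAT read on the other strand, which 34.5% of 27025 promoters of the same length also hold. The E2F strings TTTCCCGC and TTTGGCGC were not in this window on either strand.

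9630028I04Rik promoter: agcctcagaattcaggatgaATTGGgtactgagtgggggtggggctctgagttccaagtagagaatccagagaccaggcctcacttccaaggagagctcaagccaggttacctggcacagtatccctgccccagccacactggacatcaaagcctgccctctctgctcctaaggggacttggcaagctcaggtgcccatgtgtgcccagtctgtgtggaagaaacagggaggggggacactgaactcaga

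The next 14 genes higher at 5d -dox, taken in order of unadjusted p, were not called, with limma adjusted p between 0.314 and 0.354. Their groups did not overlap at any of them, beside 4.29% of all genes without overlap in this direction. DESeq2 gave 12 of them an adjusted p under 0.05, out of 16 higher genes in all. Both follow largely from the choice by p in the same mice and are not separate evidence. They fell into a few roles.

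Genes of vesicle traffic and signalling were among them. Rab26, a small GTPase of secretory granules, measured 1.86, 0.275, 1.32 and 0.538 FPM at 1d -dox and 4.15, 2.67 and 3.43 FPM at 5d -dox. Its log2 fold change was 1.51 (SE 0.30, adjusted p = 0.314), the highest among genes named here as higher, and the earlier mice varied widely. Its 3 values on dox, 3.77, 3.69 and 3.14 FPM, were as high as at 5d -dox. Ppp1r9b, which encodes spinophilin, a scaffold for protein phosphatase 1, measured 30.1, 37.0, 24.4 and 23.4 FPM against 44.6, 50.5 and 44.2 FPM, with a log2 fold change of 0.70 (SE 0.14). Akap7, an anchor for protein kinase A, measured 7.48, 8.40, 7.88 and 8.28 FPM against 11.3, 9.84 and 11.8 FPM, with the lowest unadjusted p of these 14 (0.000108). Myo5b, a myosin motor of recycling vesicles, and Sema6d, a semaphorin, had log2 fold changes of 0.67 and 0.48. Both came close to overlap in 1d -dox replicate 2, where Myo5b reached 12.1 FPM beside a lowest 5d -dox value of 12.2.

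Chromatin and transcription genes included Sap30, a subunit of the Sin3 histone deacetylase complex, at 5.52, 4.70, 5.41 and 6.34 FPM against 8.13, 10.1 and 9.17 FPM (log2 fold change 0.68, SE 0.13). The 6 male mice lay between 4.57 and 6.92 FPM, so the 3 mice at 5d -dox were above all 10 others. Sox12, a transcription factor of the SoxC group, had a log2 fold change of 0.52. Gm14403, annotated as a noncoding RNA in RefSeq, had one of 0.76. Tmem158, which encodes a membrane protein, measured 5.88, 6.75, 5.96 and 6.24 FPM against 9.84, 9.79 and 13.8 FPM, and its 6 male values lay lower still, between 2.97 and 5.16 FPM. Trp53rkb, a p53-related kinase, Pithd1 and the uridine phosphorylase Upp2 had log2 fold changes of 0.70, 0.49 and 0.90. Upp2 rested on few reads, 11 to 58 per mouse.

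The ribosomal protein genes Rpl13a and Rps3a1 completed these 14. Rpl13a measured 111, 126, 115 and 132 FPM against 173, 160 and 161 FPM, and Rps3a1 measured 33.2, 53.6, 32.9 and 41.9 FPM against 73.7, 63.0 and 68.1 FPM. Both have processed copies elsewhere in the genome and small nucleolar RNA genes within them, so how the counting assigned their reads is uncertain.

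The 14 genes lower at 5d -dox after GFP were not called either, with adjusted p between 0.314 and 0.467, and DESeq2 gave 3 of them an adjusted p under 0.05. None of their groups overlapped, beside 3.51% of all genes without overlap in this direction, which again follows largely from the choice by p. Hs3st6, which encodes a heparan sulfate sulfotransferase, measured 0.773, 1.04, 0.897 and 0.725 FPM at 1d -dox, from 30 to 36 reads, and 0, 0.467 and 0.0281 FPM at 5d -dox, from 0, 18 and 1 reads. It was listed at 0 in all 3 mice on dox and measured 0.282, 0.408 and 0.206 FPM at 3d -dox. Without 5d -dox replicate 2, the mouse with 18 reads, Hs3st6 was called, with a log2 fold change of -1.40 and an adjusted p of 0.00499. Dclk3, a doublecortin-like kinase, measured 3.97, 6.02, 1.72 and 2.41 FPM against 0.561, 1.45 and 1.04 FPM (log2 fold change -1.33, SE 0.32), beside 1.02, 0.401 and 0.485 FPM on dox and 3.12 to 3.95 FPM at 3d -dox. For Dclk3 the mice on dox and at 5d -dox were all below those at 1d -dox and 3d -dox.

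Metabolic genes on this side included Mt1, a metal-binding metallothionein, at 52.2, 54.1, 39.0 and 57.4 FPM against 36.6, 37.5 and 28.4 FPM (log2 fold change -0.56, SE 0.12). The 6 male mice lay between 27.2 and 33.5 FPM, so the 4 mice at 1d -dox were above all 9 others. Acadl, an acyl-CoA dehydrogenase of fatty acid oxidation, measured 13.8, 7.73, 13.4 and 11.4 FPM against 5.92, 7.35 and 6.44 FPM. Car11, a carbonic anhydrase-related gene, measured 1.5, 1.07, 1.07 and 1.52 FPM against 0.365, 0.597 and 0.506 FPM. Uxs1, which makes UDP-xylose, had a log2 fold change of -0.43.

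Among RNA and protein turnover genes, Zcchc6, a terminal uridylyltransferase, was the most even, at 23.8, 23.1, 23.3 and 24.8 FPM against 20.2, 18.9 and 19.6 FPM (log2 fold change -0.27, SE 0.06). The deubiquitinase Usp46, the J domain gene Dnajc27 and Scoc had log2 fold changes of -0.36, -0.47 and -0.34. Hist1h2al, a histone H2A gene, measured 12.7, 6.29, 13 and 8.98 FPM against 4.07, 5.87 and 4.45 FPM, and Zfp729b is a zinc finger gene with a log2 fold change of -0.37. Both belong to families of near-identical copies, and so does the class I histocompatibility pseudogene H2-Bl, which had 7 to 24 reads at 1d -dox and 0 to 2 at 5d -dox. Snora64 lies within Rps2, and reads of the snoRNA and of its host cannot be told apart where the counting did not separate them.

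**Figure D3:**
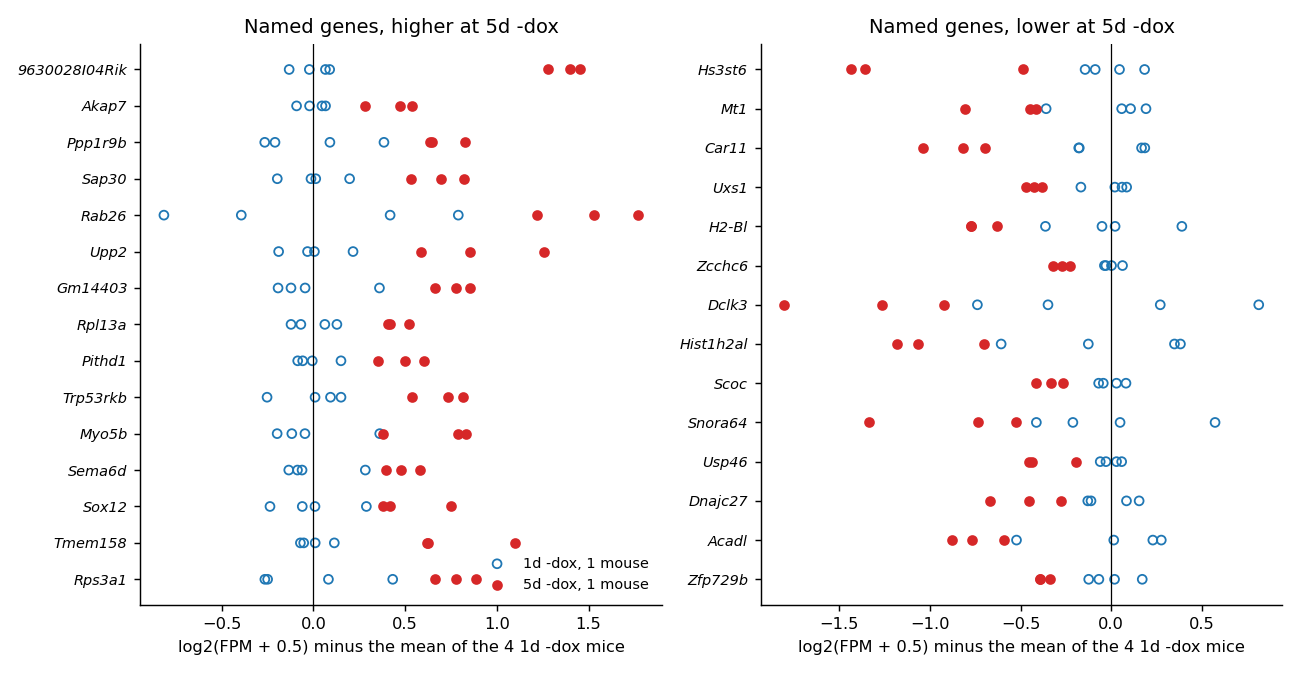
Values of each 1d -dox mouse (open circles) and 5d -dox mouse (filled circles) for the 15 genes named as higher and the 14 named as lower besides GFP, as log2(FPM + 0.5) minus the mean of the 4 mice at 1d -dox. The groups do not overlap at any gene shown, the closest being Myo5b and Mt1, and 9630028I04Rik has the widest gap relative to the spread within its groups. The genes were chosen by call or by p in these same mice.

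Genes of the cell cycle were examined next, since they are the classical targets of RB and E2F. Of the 47 S phase genes tested, 0 were called, 3 had an unadjusted p under 0.05, all lower, beside 2.67% of all genes, and their median log2 fold change was -0.10, with 10 genes above 0 and 37 below. Of the 50 G2 and M phase genes, 0 were called, 2 had an unadjusted p under 0.05, both lower, and the median was -0.21, with 2 genes above 0 and 48 below. Over all genes tested the median was 0.00074, with 7008 above 0 and 6950 below. Groups did not overlap at 3 of 47 and 3 of 50 genes in the lower direction, beside 3.51% of all genes. The summed level of the S phase list was 709, 716, 753 and 564 FPM at 1d -dox and 591, 640 and 670 FPM at 5d -dox. The summed G2 and M phase level was 804, 905, 956 and 665 FPM against 678, 720 and 746 FPM. In both lists 3 of the 4 mice at 1d -dox stood above all 3 mice at 5d -dox, and 1d -dox replicate 4 stood below them. Without that mouse the medians were -0.21 and -0.33. Within groups, the centre of each list (the median over its genes in a mouse) varied with a pooled SD of 0.14 and 0.19 log2 units. The S phase median was -0.03 without 1d -dox replicate 3, and the G2 and M phase median was -0.16 without 1d -dox replicate 2, the values nearest to 0 when any 1 mouse was left out.

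Among S phase genes, Mcm7, a subunit of the replicative helicase, measured 26.6, 27.3, 26.3 and 22 FPM against 20.3, 21.7 and 20.9 FPM, a log2 fold change of -0.28 (SE 0.08, adjusted p = 0.579). Dtl, a substrate receptor for the CUL4 ubiquitin ligase, measured 5.31, 6.29, 6.66 and 5.19 FPM against 3.28, 4.26 and 4.42 FPM, a log2 fold change of -0.51 (SE 0.16, adjusted p = 0.623). The groups did not overlap for either. Tipin, of the replication fork protection complex, and Rfc2, of the clamp loader, had log2 fold changes of -0.18 and -0.19. Of the mitotic genes, Hmmr, a spindle protein, measured 14.5, 17.5, 16.0 and 12.5 FPM against 11.5, 11.2 and 12.5 FPM, and Bub1, a kinase of the spindle checkpoint, measured 4.12, 3.82, 5.83 and 3.48 FPM against 3.00, 3.35 and 2.93 FPM. Pttg1, the securin, and Ccnb2, a cyclin of mitotic entry, had log2 fold changes of -0.34 and -0.35. None of these 8 genes passed the adjusted test.

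The promoters of these lists were searched for letters known from cell cycle promoters, on both strands of the 250 bases before the RefSeq start. The E2F string TTTCCCGC was in 6 of the 37 S phase promoters found (16.2%), against 0.929% of all 27025, and TTTGGCGC was in 5 of 37 (13.5%), against 0.437%. These strings can share up to 2 bases, and together they were in 11 S phase promoters and in 0 of the 43 G2 and M phase promoters. The CHR string TTTGAA, known from genes of mitosis, was in 15 of 43 G2 and M phase promoters (34.9%), against 16.3% of all. A match describes the letters and does not show a bound site. Stretches of 30 bases are shown for the named genes that held one, with the match in capitals. All are on the minus strand of GRCm38.p6 (Mcm7 at chr5:138172030-138172059, Dtl at chr1:191575545-191575574 and Ccnb2 at chr9:70421704-70421733). The Mcm7 match is read on the other strand. The Mcm7 stretch lies inside the RefSeq span of the gene (chr5:138164583-138172111), so the start used for Mcm7 was not its outermost one.

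Mcm7: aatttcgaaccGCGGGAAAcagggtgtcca

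Dtl: caatcagaaagcgtgacgtcagTTTGGCGC

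Ccnb2: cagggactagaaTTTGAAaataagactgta

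The regulators around RB, such as cyclins, CDK inhibitors and E2F genes, centred on 0. Of 27 tested, 0 were called, and the median log2 fold change was -0.00094, with 13 above 0 and 14 below. Cdkn2a, which encodes p16 and ARF, measured 3.87, 4.55, 3.51 and 2.08 FPM against 1.57, 2.62 and 2.59 FPM (log2 fold change -0.52, SE 0.21, adjusted p = 0.719), with overlap. E2f4, a repressive E2F, had a log2 fold change of 0.19. Of 23 p53 target genes 0 were called, with a median of 0.03.

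Cholesterol synthesis genes lay to the other side. Of 21 tested, 0 were called, 19 had a log2 fold change above 0, and the median was 0.25. Their groups did not overlap at 9 of 21 genes, all higher, beside 4.29% of all genes, and 3 had an unadjusted p under 0.05, beside 3.65%. Their summed level was 299, 321, 303 and 294 FPM at 1d -dox and 376, 360 and 343 FPM at 5d -dox, without overlap. Lss, which closes the sterol rings as lanosterol synthase, measured 8.28, 7.91, 7.43 and 6.99 FPM against 12.0, 9.61 and 10.9 FPM, a log2 fold change of 0.48 (SE 0.11, adjusted p = 0.434). Fdps, which makes farnesyl diphosphate, measured 13.7, 18.5, 15.5 and 14.4 FPM against 19.5, 21.6 and 23.8 FPM. Fdft1, the squalene synthase, measured 32.4, 29.6, 29.1 and 22.9 FPM against 35.8, 34.2 and 35 FPM, and Idi1, an isomerase upstream of both, overlapped at a log2 fold change of 0.43. The median of this list stayed between 0.20 and 0.32 when any 1 of the 7 mice was left out.

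Genes of protein folding in the endoplasmic reticulum had a median of 0.17 over 22 tested, with 20 above 0 and 0 called. Pdia4, a disulfide isomerase, Sdf2l1, Dnajc3 and the chaperone Hsp90b1 had log2 fold changes of 0.28, 0.45, 0.29 and 0.22, each with overlap between the groups. In each of these 4 genes the third 5d -dox mouse was the highest of the 7. The same mouse was the highest for Pomc, and without it the median of this list was 0.09, while without 1d -dox replicate 3 it was 0.08.

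Melanotroph genes had a median of 0.14 over 17 tested, with 12 above 0, 5 below and 0 called. Pomc itself measured 32143, 44553, 24313 and 38589 FPM against 40260, 39174 and 56502 FPM, overlapping, with a log2 fold change of 0.39 (SE 0.43, adjusted p = 0.892). Pam, which amidates peptide hormones, measured 139, 189, 97.8 and 149 FPM against 187, 168 and 276 FPM (log2 fold change 0.55, SE 0.19), and Cpe, a carboxypeptidase of prohormone processing, measured 392, 437, 334 and 409 FPM against 438, 460 and 593 FPM (log2 fold change 0.33, SE 0.13). Chga, a granule protein, and Pcsk1, a prohormone convertase, had log2 fold changes of 0.41 and 0.23. The third 5d -dox mouse was again the highest for each of these, and without it the median of the list was 0.01. Pax7, which specifies melanotrophs, lay between 149 and 174 FPM at 1d -dox and between 153 and 167 FPM at 5d -dox. Cytosolic ribosomal protein genes had a median of 0.10 over 50 tested, with 43 above 0 and 0 called, and Rps3, a protein of the small subunit, had a log2 fold change of 0.19. Scaled to library totals, the ribosomal median was 0.02, and without 5d -dox replicate 3 it was 0.06.

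**Figure D4:**
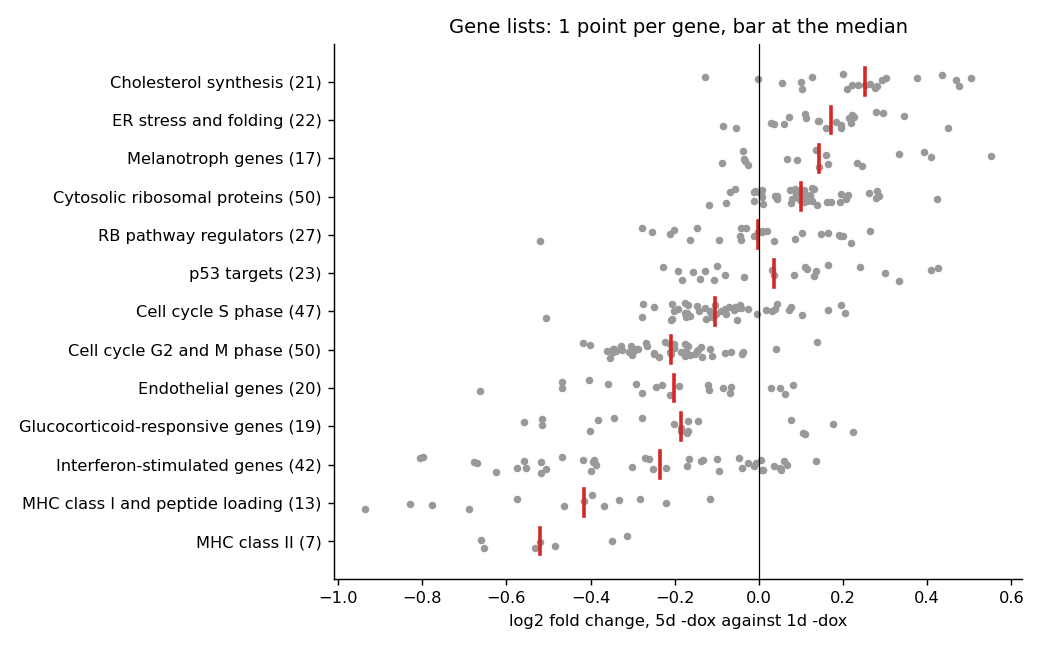
Fitted log2 fold changes (5d -dox against 1d -dox) of the genes of 13 lists, 1 point per gene, with the number tested in brackets and a bar at the median. Among these 13 lists cholesterol synthesis has the highest median (0.25) and MHC class II the lowest (-0.52, but 0.22 without 1d -dox replicate 1). The G2 and M phase list has 48 of 50 genes below 0, but its summed level in 1d -dox replicate 4 (665 FPM) was below every 5d -dox mouse. Skeletal muscle genes, not shown, had a median of 0.31 over 4 tested.

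Endothelial genes, which mark blood vessels, had a median of -0.20 over 20 tested, with 4 above 0, 16 below and 0 called. Flt1, a receptor for vascular endothelial growth factor, measured 3.76, 5.07, 4.64 and 3.27 FPM against 3.48, 2.21 and 1.83 FPM, a log2 fold change of -0.66 (SE 0.20, adjusted p = 0.618) with overlap. The junction protein Esam, the transcription factor Erg and the sialomucin Emcn had log2 fold changes of -0.47, -0.47 and -0.40, all with overlap. The defining markers Pecam1, Cdh5, Kdr and Plvap were between 1.01 and 6.57 FPM in all 7 mice and overlapped as well. The summed level of the list was 105, 95, 122 and 109 FPM against 96.8, 98.2 and 90.6 FPM. Most of it was 1 gene, Esm1, at 75.0, 66.2, 89.6 and 84.4 FPM against 70.5, 73.7 and 72.1 FPM, with overlap. The median of the list was -0.12 without 5d -dox replicate 3. Glucocorticoid-responsive genes had a median of -0.18 over 19 tested, with 14 below 0, 0 called and no overlap at 2, both lower, beside 3.51% of all genes. The median was -0.08 without 5d -dox replicate 1 and -0.32 without 5d -dox replicate 3. Mt1, described above, is one of them, and its neighbour Mt2 measured 21.1, 19.9, 16.0 and 22.4 FPM against 14.5, 17 and 10.2 FPM. Tat, an aminotransferase, and Angptl4, an inhibitor of lipoprotein lipase, had log2 fold changes of -0.51 and -0.40.

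The interferon and antigen presentation genes need to be read by mouse. The summed level of 42 interferon-stimulated genes was 330 FPM in 1d -dox replicate 1 and 122, 162 and 139 FPM in the other mice at 1d -dox, against 143, 145 and 126 FPM at 5d -dox. For 13 genes of MHC class I and peptide loading it was 298 FPM in that mouse, 110, 122 and 120 FPM in its group mates and 114, 114 and 107 FPM at 5d -dox. For 7 MHC class II genes it was 179 FPM in that mouse, 6.20, 28.2 and 27.6 FPM in its group mates and 29.9, 31.7 and 9.96 FPM at 5d -dox. The 3 lists had medians of -0.24, -0.42 and -0.52 with 0 genes called, and without that mouse they had medians of -0.03, -0.07 and 0.22. The differences in these lists thus rested on 1 mouse, and the sign of the class II list turned without it.

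Single genes showed the same. Gbp4, a guanylate-binding protein, measured 14.8 FPM in that mouse and 0.113 to 0.611 FPM in the other 6. Psmb9, of the immunoproteasome, measured 5.13 FPM there, and Ciita, the transactivator of MHC class II, measured 5.34 FPM there and 0.122 to 0.729 FPM elsewhere. B2m, the light chain of MHC class I, measured 39.7 FPM there, 6.63, 7.18 and 6.95 FPM in its group mates and 5.41, 5.32 and 5.51 FPM at 5d -dox. H2-D1, a class I heavy chain, measured 5.39, 1.65, 1.75 and 1.54 FPM against 1.26, 1.22 and 1.15 FPM. For B2m and H2-D1 the 3 later mice were thus also below the other 3 earlier mice, while Isg15 and Irf7, interferon targets with log2 fold changes of -0.52 and -0.55, and H2-Q4 and H2-DMb1, at -0.58 and -0.65, overlapped. Macrophage genes summed to 48.5 FPM in the mouse that stood apart and to 26.7 to 34.9 FPM in its group mates, against 29.8 to 43.1 FPM at 5d -dox. Of the list of 20 lymphocyte genes only 1, Ptprc, was tested, at 1.88 FPM in that mouse and 0.428 to 1.45 FPM in the other 6. Ptprc encodes CD45, which the study stained to follow immune cells, and it is not particular to lymphocytes. Cd3e, Cd8a, Cd79a and Ms4a1 were not among the genes analysed here. The part of immune cells in the interferon values was not tested.

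**Figure D5:**
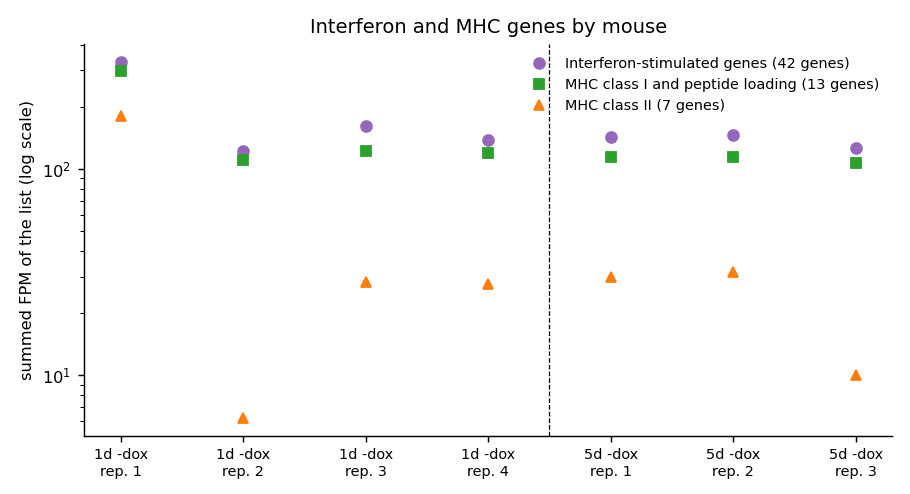
Summed FPM (log axis) of the interferon-stimulated, MHC class I and MHC class II lists in each of the 7 mice. The first 1d -dox mouse is above all others in each list (330, 298 and 179 FPM), and the other 6 mice lie at 122 to 162, 107 to 122 and 6.20 to 31.7 FPM.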

How the data were processed

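Bulk RNA-seq of pituitary tumors from 7 female shRb mice (4 at 1d -dox, 3 at 5d -dox) was compared. The authors aligned reads with STAR (default settings, mm10), kept RefSeq genes that reached 10 reads in over 50% of the mice of any condition, and deposited a signal, FPM, scaled by DESeq2 size factors. The counting tool and strand setting are not given in the sources used here. All 182091 of 182091 deposited values were whole multiples of 1 read, within 0.1 of a read, so reads were recovered for alternatives. The 4 lines that name no gene (71.6% to 75.0% of a library) stayed out of totals and tests.

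The same filter on recovered reads left 13958 of 14007 genes, of which 13424 matched RefSeq (GRCm38.p6). limma 3.58.1 (R 4.3.3, trended prior variance) was fitted to log2(FPM + 0.5) over all 13 short-term mice, since the 4 groups then share one estimate of the spread, with Benjamini-Hochberg adjustment over all genes. A call needed a fitted change of more than 2-fold and an adjusted p under 0.05. The pseudocount makes fold changes of low genes smaller. Fits with edgeR 4.0.16 and DESeq2 1.42.0 on recovered reads, other scalings, pseudocounts and filters, a replicate block and leaving out each mouse were alternatives. Scripts were tested on simulated data. Nothing states that the mice came from separate litters or cages. The p-values of the fits measure only the spread within the groups of these 13 mice, the male mice included. The 9 replicate pairs differed by more than sampling noise, with a chi-square of 5.44 to 25.4 for each degree of freedom.

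Named were GFP, Rb1, in each direction the 15 genes first by call and size and then by unadjusted p, and up to 4 members of each list described, by p, apart from some that are not reported here. Arg1, Nptxr, Ttn, Rpl29, Gbp4, Cd74, Esm1, Ptprc, Lemd2 and Pomc were named after their values were seen. The 38 gene lists and the genes in them were chosen with earlier results of these data known, so lists are described by counts and medians without a test. Promoter and transcript sequences are from RefSeq (GRCm38.p6) and GENCODE vM21, and the shRNA site is the one that the study lists. The long-term dox experiment was not used here.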

Additional observations from a re-analysis of the deposited data

Results flagged for a closer look

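Among the 4 mice at 1d -dox, 79 named genes and the summed levels of 8 lists were examined for 1 mouse far from the others, as the gap to its nearest neighbour divided by the range of the group. Dixon's 95% critical value flags about 1 in 20 such groups by chance, and 12 of these values passed it. The count cannot be set against that rate. Gbp4 and Cd74 were named after their values were seen, and many of the flagged genes and lists are related and share 1 mouse. GFP had a ratio of 0.836, with 1d -dox replicate 2 low at 310 FPM. Sema6d had a ratio of 0.847, with the same mouse high at 8.12 FPM against 5.96 to 6.29 in the others. Erg had a ratio of 0.936, with 1d -dox replicate 4 low at 0.304 FPM. The other ratios belonged to 1d -dox replicate 1, which was high, and were 0.948 for H2-D1, 0.983 for B2m, 0.886 for Psmb9, 0.952 for H2-DMb1, 0.902 for Ciita, 0.987 for Gbp4 and 0.874 for Cd74, with 0.940 for the summed MHC class I list and 0.873 for the summed MHC class II list. GFP in 1d -dox replicate 1 was 741 FPM, the highest of its group.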

How the results depend on the processing

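With 4 and 3 mice, the smallest exact permutation p is 0.0571, and genes with few reads, such as Hs3st6 and H2-Bl, depend on the pseudocount. GFP was called under all 18 alternatives (log2 fold change -5.88 to -5.45), as was 9630028I04Rik (1.08 to 1.94), while Rb1 was called under none (0.13 to 0.34). The count of calls was 1 in each direction under most settings. DESeq2 called 4 higher and 3 lower. Leaving out 1 mouse at a time gave 1 to 2 higher and 1 to 2 lower, the added genes being Ttn without 1d -dox replicate 2 (1.65, adjusted p = 0.0213) and Hs3st6 without 5d -dox replicate 2. Of 1375 values of the other 77 named genes, 1366 kept their direction and side of the threshold, 7 passed it and 2 reversed, both without 1d -dox replicate 1, Ciita at 0.22 (leaving out any 1 mouse, -0.86 to 0.22) and Cd74 at 0.28 (-1.20 to 0.28). Of 607 list medians, 17 moved by more than the spread between mice. With totals of reads they were -0.080 for RB regulators, -0.066 for the respiratory chain, -0.045 for the mitochondrial ribosome and for pituitary transcription factors, 0.18 for cholesterol synthesis, -0.14 for apoptosis and -0.093 for housekeeping genes. For skeletal muscle the median was 0.57 with a pseudocount of 0.1 and 0.78 with at least 10 reads in every mouse. Leaving out 1 mouse at a time, medians ran from -0.0059 to 0.029 (mitochondrial ribosome), 0.014 to 0.20 (melanotroph), -0.0037 to 0.16 (pituitary factors), 0.023 to 0.16 (stem and folliculostellate), -0.054 to 0.13 (erythroid), -0.27 to 0.012 (pericyte and smooth muscle), -0.035 to 0.17 (brain) and 0.20 to 0.32 (cholesterol). The cause of these moves was not tested. Same-numbered mice did not deviate together (correlations 0.029, -0.21 and -0.19, and 0 of 3 correlated best with its own number). Only 3 correlations cannot exclude a pairing by number. With a replicate block 1 gene was called in each direction, 9630028I04Rik at an adjusted p of 0.0457. The male 16w +dox replicate 2 had the lowest mean correlation with the other 12 short-term mice (0.969). Leaving it out, chosen after seeing the data, changed no count, and the limma adjusted p of 9630028I04Rik was then 0.000268.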

Other observations

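The other gene lists had 0 genes called. Immediate-early genes had a median log2 fold change of -0.10 over 28 tested, and their sign turned without 1d -dox replicate 3 (0.03). In this list Klf4, a zinc finger transcription factor, measured 2.42, 1.13, 2.22 and 3.16 FPM at 1d -dox and 0.925, 0.753 and 1.55 FPM at 5d -dox, and Myc had a log2 fold change of -0.46. Medians were 0.03 for 36 genes of the ATF4 and amino acid response, 0.02 for 17 heat shock genes, 0.01 for 48 nuclear-encoded respiratory chain genes, 0.03 for 69 mitochondrial ribosome genes, 0.00041 for 31 genes of hypoxia and glycolysis, -0.05 for 20 clock genes, -0.0023 for 16 estrogen-responsive genes and -0.08 for 19 apoptosis genes. For housekeeping reference genes the median was -0.02 over 12 tested.

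Among cell type lists, medians were 0.03 for 11 pituitary lineage transcription factors, 0.09 for 10 anterior lobe hormone genes, 0.05 for 8 neural lobe genes, 0.04 for 14 stem and folliculostellate genes, -0.08 for 22 macrophage genes, -0.04 for 7 neutrophil genes, 0.13 for 3 erythroid genes, -0.05 for 11 pericyte and smooth muscle genes, -0.07 for 28 fibroblast and matrix genes, -0.04 for 20 matrix protease genes, -0.13 for 5 Schwann cell genes, 0.06 for 6 neuron genes and -0.06 for 17 chemokine and inflammation genes. Ptprc, the only gene tested of the lymphocyte list, stood at -0.09. Without 1d -dox replicate 1, the mouse with high interferon genes, the macrophage median was 0.10, Ptprc stood at 0.12 and the chemokine median was 0.0016, all of the opposite sign. Over all 38 lists, the median of 22 changed sign when some 1 of the 7 mice was left out, and the directions of these small medians are therefore not read here. Anterior lobe hormone genes summed to 109, 43.0, 24.7 and 111 FPM at 1d -dox and to 61.4, 28.1 and 109 FPM at 5d -dox. Both groups thus held mice with little and with more anterior lobe RNA.

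Several genes named after their values were seen had fitted changes over 2-fold without a call. Ttn, the giant sarcomere protein, measured 38.8, 148, 61.5 and 62.6 FPM at 1d -dox and 208, 165 and 136 FPM at 5d -dox, with a log2 fold change of 1.28 (adjusted p = 0.454). The other muscle genes tested were few, 4 of 12 in all with a median of 0.31, and Acta1 and Ckm were not among the genes analysed here. Arg1, the urea cycle arginase, measured 0.825, 1.16, 0.997 and 1.03 FPM against 4.07, 1.82 and 3.66 FPM (log2 fold change 1.24, adjusted p = 0.372), and Nptxr, a neuronal pentraxin receptor, measured 1.19, 2.02, 1.97 and 2.32 FPM against 3.20, 4.93 and 10.7 FPM (1.38, adjusted p = 0.454). Arg1 was as high on dox (1.84 to 4.28 FPM) as at 5d -dox, and Nptxr was lower on dox (0.374 to 1.05 FPM). Rpl29, a ribosomal protein gene with many copies in the genome, measured 6.60 FPM in 1d -dox replicate 2 and 57.4 to 133 FPM in the other 6 mice.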
